A study of Homo sapiens with 4 samples.

Results

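Chromatin accessibility was described at 10 genes of mitochondrial fusion and fission, MFN1, MFN2, OPA1, DNM1L, FIS1, MFF, MIEF1, MIEF2, YME1L1 and OMA1. The authors deposited 2 tables of peaks, of which 1 carries gene annotation and is called the annotated table here. The peaks described are its rows with these gene symbols, 13 of 20556 peaks, and the rows of the other table that they overlap, 11 of 13577. All 10 genes had at least 1 peak, and all 10 had a promoter peak in both tables. The cells were Kasumi-1, an established acute myeloid leukaemia line that carries the t(8;21) translocation, and the assay was ATAC-seq, whose transposase inserts sequencing adapters into open chromatin. Of the 4 libraries, 2 came from cells with a CRISPR/Cas9 knockout of SETD8 (sgSETD8) and 2 from control cells of genotype WT that received sgNT. The labels give no time after editing and name no clone, and whether the libraries numbered 2 are separate cultures, or were edited with another guide, is not stated. The other table, called the library-2 table here, compared the knockout and control libraries numbered 2, 1 library per group. The annotated table names no library, and its title gives the direction as treated over control. Treated is taken here as the knockout. How many libraries that table holds per group, and whether it includes those numbered 2, are not stated. The 2 tables may thus share libraries, and values found in both are not known to be independent.

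Mitochondria form a network that is remodelled by large GTPases. MFN1 and MFN2, the mitofusins, fuse the outer membrane, and OPA1 fuses the inner membrane and shapes the cristae. DNM1L encodes DRP1, the dynamin-related GTPase that constricts and divides mitochondria after it is recruited from the cytosol by outer membrane receptors, among them MFF and the MiD proteins encoded by MIEF1 and MIEF2, with FIS1 as a further adaptor. The inner membrane proteases YME1L1 and OMA1 cleave OPA1, and OMA1 does so when membrane potential is lost. The series title names mitochondrial homeostasis, which is the question these genes bear on.

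SETD8, now KMT5A, encodes the enzyme that monomethylates histone H4 at lysine 20, and its own promoter peak had a log2 fold change of -0.82 in the authors' deposited annotated table and of -1.45 in the authors' deposited library-2 table. Editing of a coding exon can leave promoter accessibility as it was, so these values are a weak check of the labels. Nearly all peaks were lower in the knockout as deposited, 92.3% of the annotated table and 98.6% of the other, with medians of -0.87 (quartiles -1.17 and -0.53) and -1.23 (quartiles -1.43 and -1.01). In the library-2 table the knockout library held 2091370 reads in peaks and the control 5345010, or 4906719 after the authors' scaling, a ratio of 0.426. Whether this shared shift reflects the cells or the scaling of the libraries was not tested, so each gene is also given relative to the median of its table. The KMT5A promoter stood 0.05 above the median of the annotated table and differed by -0.22 from that of the library-2 table. Its negative values thus largely follow the shared shift and do not show a decrease particular to the targeted gene. Of 10 genes that mark myeloid blasts, 6 had a promoter peak in both tables (RUNX1, CD34, KIT, SPI1, CEBPA and PTPRC), whereas RUNX1T1, MPO, CD33 and CD38 had none. Of 10 markers of other cell types, 4 had a promoter peak in the annotated table, and 0 of these 4 had one in the library-2 table. Peaks of the library-2 table took gene and promoter class only from a joined peak of the annotated table. Genes without a promoter peak in the annotated table therefore could not have one in the library-2 table.

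The promoter sequences of 5 of these genes are shown because they include both ends of the range in the annotated table and lie on the same side of the median in both tables: MFN1, OMA1, MFF and MIEF2 lay below the median of all peaks, and OPA1 lay above it. FIS1 and MIEF1, the ends of the range in the library-2 table, are not shown. The stretches come from RefSeq for GRCh38.p14, read 5′ to 3′ on the strand of the gene, and end before the first start site annotated for the gene. They lie at chr3:179347459-179347708 (MFN1, plus strand), chr1:58546727-58546976 (OMA1, minus strand), chr2:227325001-227325150 (MFF, plus strand), chr17:18260412-18260596 (MIEF2, plus strand) and chr3:193592958-193593143 (OPA1, plus strand). Capitals mark every match, on either strand, to 10 motifs: NRF1 (GCGCNTGCG), ETS (CCGGAAG), the GC box (GGGCGG), YY1 (AANATGGC), CRE (TGACGTCA), the E-box (CACGTG), the box spelled CCAAT, the motif of RUNX factors (TGTGGT), the motif of the family called GATA, which was spelled AGATAA, and the motif of AP-1 (TGANTCA).
MFN1: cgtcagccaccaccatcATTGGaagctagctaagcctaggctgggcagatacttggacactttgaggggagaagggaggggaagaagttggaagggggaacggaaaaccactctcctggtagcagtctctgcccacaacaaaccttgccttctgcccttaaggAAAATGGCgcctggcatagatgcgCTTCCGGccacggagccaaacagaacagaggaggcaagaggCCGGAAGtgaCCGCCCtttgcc
OMA1: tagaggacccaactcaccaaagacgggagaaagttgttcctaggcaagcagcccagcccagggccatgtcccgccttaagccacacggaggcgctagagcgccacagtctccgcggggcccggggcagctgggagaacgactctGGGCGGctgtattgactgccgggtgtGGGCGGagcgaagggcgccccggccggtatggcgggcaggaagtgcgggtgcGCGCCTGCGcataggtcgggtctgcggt
MFF: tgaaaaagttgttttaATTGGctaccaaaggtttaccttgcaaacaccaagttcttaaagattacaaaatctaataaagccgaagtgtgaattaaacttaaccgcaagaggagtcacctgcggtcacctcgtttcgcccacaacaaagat
MIEF2: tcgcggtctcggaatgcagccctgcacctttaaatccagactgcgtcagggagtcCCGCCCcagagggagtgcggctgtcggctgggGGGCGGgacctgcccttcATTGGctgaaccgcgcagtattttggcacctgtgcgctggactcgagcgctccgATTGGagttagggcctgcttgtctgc
OPA1: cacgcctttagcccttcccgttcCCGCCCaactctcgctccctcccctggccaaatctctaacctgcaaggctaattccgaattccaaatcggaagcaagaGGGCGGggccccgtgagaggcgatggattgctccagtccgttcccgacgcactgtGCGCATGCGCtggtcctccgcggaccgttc

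In the MFN1 stretch the capitals are, in order, a CCAAT match on the minus strand, a YY1 match, an ETS match on the minus strand, an ETS match on the plus strand and a GC box on the minus strand. The OMA1 stretch holds GC boxes and then an NRF1 match, and the OPA1 stretch holds GC boxes in both orientations and overlapping NRF1 matches on both strands. The MFF stretch holds only a CCAAT match, and that of MIEF2 holds GC boxes and CCAAT matches. No matches of different motifs overlapped in these stretches.

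Over the full RefSeq windows, from 250 bases before to 50 after a start site, 9 of the 10 genes had an entry, and YME1L1 had none. MFF and MIEF2 had more than 1 window, and for each gene the first along the chromosome that overlapped a peak of the annotated table was used. The comparison sets were all 35116 promoter windows and the 11824 of them that overlapped a peak of the annotated table, called open here. A GC box was present at 8 of the 9 genes, all but MFN2, against 45.0% of all windows and 73.4% of open ones. CCAAT was present at 6 of 9 (MFN1, OPA1, DNM1L, MFF, MIEF1 and MIEF2) against 34.6% and 36.9%. The ETS motif was found at 3 of 9 (MFN1, FIS1 and MIEF1) against 10.3% and 21.5%, and NRF1, the motif of nuclear respiratory factor 1, at 2 of 9 (OPA1 and OMA1) against 7.47% and 16.9%. YY1 was found only at MFN1, against 6.58% and 10.7%, and AP-1 only at OMA1, against 7.71% and 4.41%. CRE (1.85% and 3.71%), E-box (7.26% and 10.3%), RUNX (13.1% and 9.16%) and GATA (10.3% and 4.09%) letters were found at 0 of the 9. The mitofusins lay at opposite ends in CpG content: the MFN1 window held 10 CpG dinucleotides and that of MFN2 held 37, at percentiles 6.63 and 81.5 of open promoters. The windows used for the other 7 held between 21 and 27, a further open window of MIEF2 held 20, and the median open promoter held 27.

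All 13 peaks of the fusion and fission genes had a lower level in the knockout as deposited in the annotated table, against 92.3% of all peaks. None passed the authors' test. A decrease of at least 1 on the log2 scale was listed for 6 of the 13 peaks in the authors' deposited annotated table, FIS1 at exactly that value among them, against 38.9% of all peaks. The authors' deposited library-2 table listed one for 11 of 11 peaks, against 76.1% of all peaks. None was higher by at least 1, against 0.511% and 0.133% of all peaks. Taking the strongest promoter peak of each gene, the 10 genes stood at a median of -1.06 in the annotated table, from -1.93 to -0.41, with 6 of 10 lower by at least 1 against 43.3% of 10187 genes. The median over those 10187 genes was -0.93. In the library-2 table the 10 genes had a median of -1.25, from -1.58 to -1.09, with 10 of 10 lower by at least 1 against 83.1% of 8379 genes, whose median was also -1.25. Adjusted p-values of these peaks ran from 0.731 to 0.937 in the authors' deposited annotated table and stood at 0.578 in the authors' deposited library-2 table, where 0% of all peaks passed 0.05 in either. Unadjusted p-values ran from 0.0603 to 0.901 and from 0.185 to 0.416 in the authors' deposited tables. At an unadjusted p under 0.05 there were 0 of these peaks, against 1.6% and 0.14% of all peaks.

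**Figure D1:**
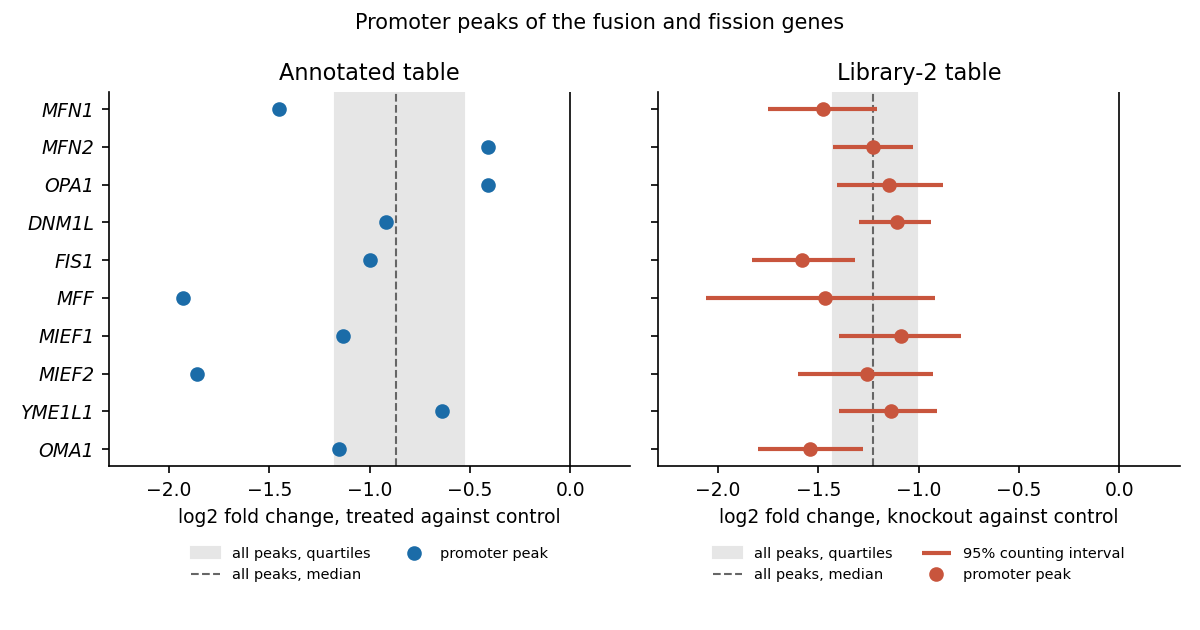
Log2 fold change of the strongest promoter peak of each gene in the annotated table (left, treated against control) and in the library-2 table (right, knockout against control library 2). The dashed line and grey band give the median and quartiles of all peaks, and bars on the right are 95% counting intervals of 1 library per group. In the annotated table MFF and MIEF2 lie farthest to the left and MFN2 and OPA1 farthest to the right, and in the library-2 table the genes lie between -1.58 and -1.09.

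The fold changes were spread over 1.52 log2 units in the annotated table and 0.49 in the library-2 table. Relative to the median of all peaks, 7 of the 10 genes were lower in the annotated table, where 55.8% of genes were, and 5 in the library-2 table, where 52.8% were. MFN1, FIS1, MFF, MIEF2 and OMA1 were below the median in both tables, 5 of 10 against 33.4% of the 8379 genes measured in both. OPA1 and YME1L1 were above it in both, 2 of 10 against 21.2%. At the genes with a further promoter peak the side depended on the peak. The weaker YME1L1 peak, over the RefSeq start, differed from the annotated-table median by -0.10 and joined no library-2 peak. The upstream FIS1 peak stood 0.19 above that median and differed from the library-2 median by -0.16. Because the tables may share libraries, a like position in both is not known to come from independent comparisons. DNM1L and MIEF1 were below in the annotated table and above in the library-2 table, and MFN2 was above in the annotated table and at the median in the library-2 table.

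**Figure D2:**
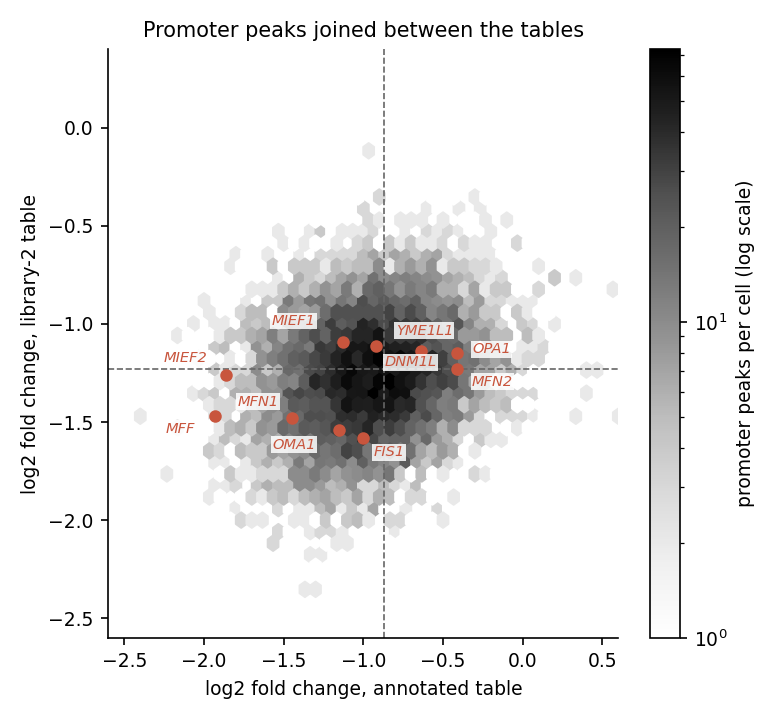
Log2 fold change of 8994 promoter peaks joined between the tables, annotated table on the x axis and library-2 table on the y axis, with the shade giving the number of peaks on a log scale. Red points are the 10 genes and dashed lines are the medians of all peaks, -0.87 and -1.23. MFF and MIEF2 lie at the left edge of the cloud, and MFN2 and OPA1 lie to the right of the vertical line.

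Among the fusion genes, MFN1 had the lower deposited fold change of the mitofusin pair in both tables, by differences that had no test in the annotated table and lay within counting error in the library-2 table. The MFN1 peak (chr3:179347374-179347990, over the start of a gene spanning 179347709 to 179394936) had a fold change of -1.45 with p = 0.177 in the authors' deposited annotated table. Its difference from the median of all peaks was -0.58, at percentile 10.1 of all peaks. At MFN1 the knockout library numbered 2 held 154 reads against 428 normalised reads of the control, and the fold change of -1.48 in the library-2 table had a 95% counting interval of -1.75 to -1.21. Here reads were recovered from the deposited log2 levels, and the interval is the exact conditional binomial one, which covers counting error only.

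The MFN2 peak (chr1:11979902-11980655, gene 11980444 to 12013508) had a fold change of -0.41 with p = 0.689 in the authors' deposited annotated table, 0.46 above the median and at percentile 80.8. MFN2 had 294 knockout and 690 normalised control reads and a fold change of -1.23 in the library-2 table, equal to its median, with an interval of -1.43 to -1.03. The difference of MFN1 minus MFN2 was thus -1.04 in the annotated table and -0.25 in the library-2 table. In the library-2 table MFN2 minus MFN1 was 0.25 with a 95% counting interval of -0.08 to 0.58, which held 0. Intervals of differences between genes, here and below, are a normal approximation to counting error and not the exact binomial one. No replicate values of the annotated table were analysed here, so the difference there has no test.

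OPA1 had a promoter peak and a distal peak. The promoter peak (chr3:193592877-193593786, gene 193593208 to 193697811) had a fold change of -0.41 with p = 0.706 in the authors' deposited annotated table, 0.46 above the median, and was thus lowered less than most peaks. The OPA1 promoter had 165 knockout and 365 normalised control reads and a fold change of -1.15 in the library-2 table (interval -1.41 to -0.88), 0.08 above the median. The distal intergenic peak (chr3:193702238-193702665), 4427 bp beyond the end of the gene, was weaker, with a mean of 73.01 normalised reads, and had -0.11 with p = 0.901 in the authors' deposited annotated table. It joined no peak of the library-2 table, and it was the least changed of the 13.

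DNM1L, the fission GTPase, had the highest peak level of the 10 genes in the annotated table, also per length, and a change close to that of the median peak. Its peak (chr12:32679028-32679939, gene 32679301 to 32745650) held a mean of 798 normalised reads, or 875 per kb, and had a fold change of -0.92 with p = 0.367 in the authors' deposited annotated table, a difference from the median of -0.05. The libraries numbered 2 gave 362 knockout and 787 normalised control reads and a fold change of -1.11 in the library-2 table (interval -1.30 to -0.94), 0.12 above the median.

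Of the DRP1 receptors, MFF and MIEF2 had the lowest values of all 10 genes in the annotated table. The MFF peak (chr2:227325011-227325814, gene 227325251 to 227357836) had a fold change of -1.93 with p = 0.0603 and an adjusted p of 0.731 in the authors' deposited annotated table, at percentile 1.5 of all peaks. It was also the weakest promoter peak of the 10 genes in the annotated table, with a mean of 101 normalised reads, or 126 per kb. MFF had 36.0 knockout and 99.7 normalised control reads, and its fold change of -1.47 in the library-2 table had a wide interval of -2.06 to -0.92 that held the table median of -1.23. The MIEF2 peak (chr17:18260278-18260867, gene 18260662 to 18266552) had -1.86 with p = 0.0836 and an adjusted p of 0.731 in the authors' deposited annotated table, at percentile 2.04. MIEF2 had 103 knockout and 247 normalised control reads and a fold change of -1.26 in the library-2 table (interval -1.60 to -0.93), a difference of -0.03 from the median. MIEF2 thus stood far below the median in the annotated table and close to it in the library-2 table, whereas MFF differed from it by -0.24 in the latter, which lay within counting error.

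MIEF1, which encodes the other MiD receptor, stood nearer to the median. Its peak (chr22:39501970-39502654, within the RefSeq span of 39500100 to 39518132) had -1.13 with p = 0.293 in the authors' deposited annotated table, a difference from the median of -0.26. It had 127 knockout and 271 normalised control reads and a fold change of -1.09 in the library-2 table (interval -1.40 to -0.79), the least lowered of the 10. MIEF2 minus MIEF1 was -0.73 in the annotated table and -0.17 in the library-2 table.

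FIS1 had 2 promoter peaks, each over a different annotated start. The stronger one (chr7:101244240-101245218), at the RefSeq start of a gene spanning 101239472 to 101245081, had -1.0 with p = 0.337 in the authors' deposited annotated table. It had 167 knockout and 498 normalised control reads, and its fold change of -1.58 (interval -1.83 to -1.32) was the lowest of the 10 genes in the library-2 table. The upstream peak (chr7:101251909-101252616), over the start of a longer transcript in the authors' annotation, had -0.68 with p = 0.528 in the authors' deposited annotated table and -1.39 (interval -1.66 to -1.13) in the library-2 table, from 165 knockout and 434 normalised control reads. The upstream peak thus had the smaller decrease of the pair in both tables, and the intervals of the pair overlapped in the library-2 table.

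**Figure D3:**
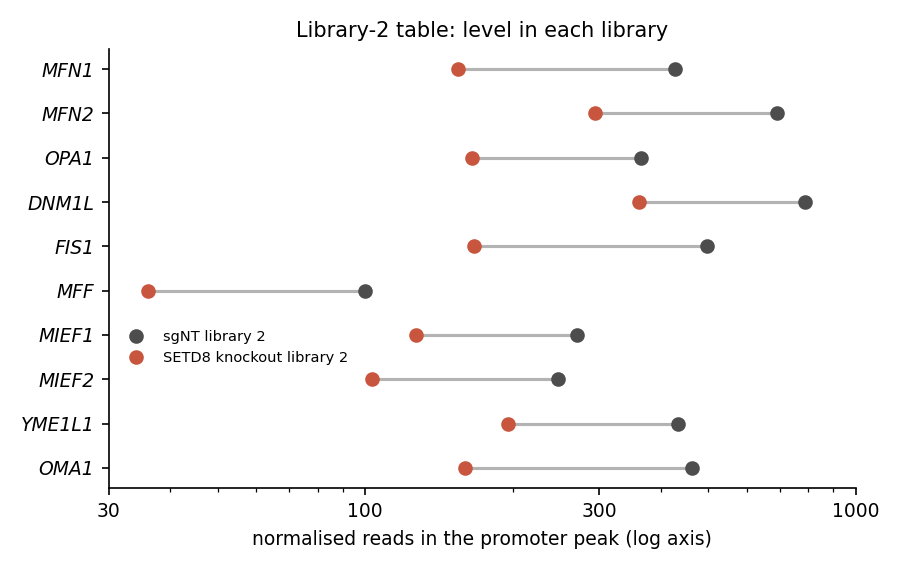
Normalised reads in the strongest promoter peak of each gene in the library-2 table (log axis), with the sgNT library 2 in grey and the SETD8 knockout library 2 in red, 1 library each. The knockout level lies below the control level at all 10 genes, and MFF has the fewest reads, 36.0 against 99.7.

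Of the proteases that cleave OPA1, OMA1 had a lower deposited fold change in both tables than the stronger peak of YME1L1. OMA1, the stress-activated one, had a peak (chr1:58546078-58547007, gene 58480719 to 58546726) with a fold change of -1.15 and p = 0.28 in the authors' deposited annotated table, a difference of -0.28 from the median. OMA1 had 160 knockout and 465 normalised control reads and a fold change of -1.54 in the library-2 table, and its interval of -1.80 to -1.28 lay below the table median. YME1L1, the constitutive protease, had 2 promoter peaks 340 bp apart. The stronger one (chr10:27154994-27156107) had -0.64 with p = 0.548 in the authors' deposited annotated table, 0.23 above the median. It held 195 knockout and 434 normalised control reads, with a fold change of -1.14 in the library-2 table (interval -1.40 to -0.91). The weaker one (chr10:27154103-27154653), over the RefSeq start at 27154384, had -0.97 with p = 0.364 in the authors' deposited annotated table, nearer to OMA1. It joined no peak of the library-2 table. With the stronger YME1L1 peak, OMA1 minus YME1L1 was -0.51 in the annotated table, a difference that had no test, and -0.40 in the library-2 table. There the 95% counting interval of the difference was -0.75 to -0.05, which covers counting error only and is not adjusted for the number of pairs.

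Within the library-2 table, the differences between genes were set against counting error for all 45 pairs of the 10 genes, with intervals not adjusted for their number. In 10 pairs the interval left out 0, and each of them held FIS1, OMA1 or MFN1 as the more lowered gene. The largest was FIS1 minus MIEF1 at -0.49 (interval -0.88 to -0.10), and DNM1L minus MFN1 was 0.37 (interval 0.05 to 0.69). Neighbours in the order of fold changes did not differ beyond counting error. The intervals of 2 of the 11 peaks, the stronger FIS1 peak and that of OMA1, left out the table median, 18.2% against 33.4% of all peaks. Differences between cultures are not covered by these intervals, because the table has 1 library per group.

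All 12 promoter peaks covered the start site to which the authors annotated them. Of these, 11 joined a peak of the library-2 table, 91.7% against 76.3% of all promoter peaks. Start sites of other genes lay within 1 kb of the peaks at 4 of the 10: MFF-DT at MFF, LOC105373035 at MIEF1, MASTL at YME1L1 and DAB1 at OMA1. Accessibility at these shared sites cannot be ascribed to one gene or the other. The strongest promoter peak was at or above the median level of all peaks at 8 genes in the annotated table and 7 in the library-2 table, MFF and MIEF2 being below it in both and MIEF1 in the library-2 table.

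**Figure D4:**
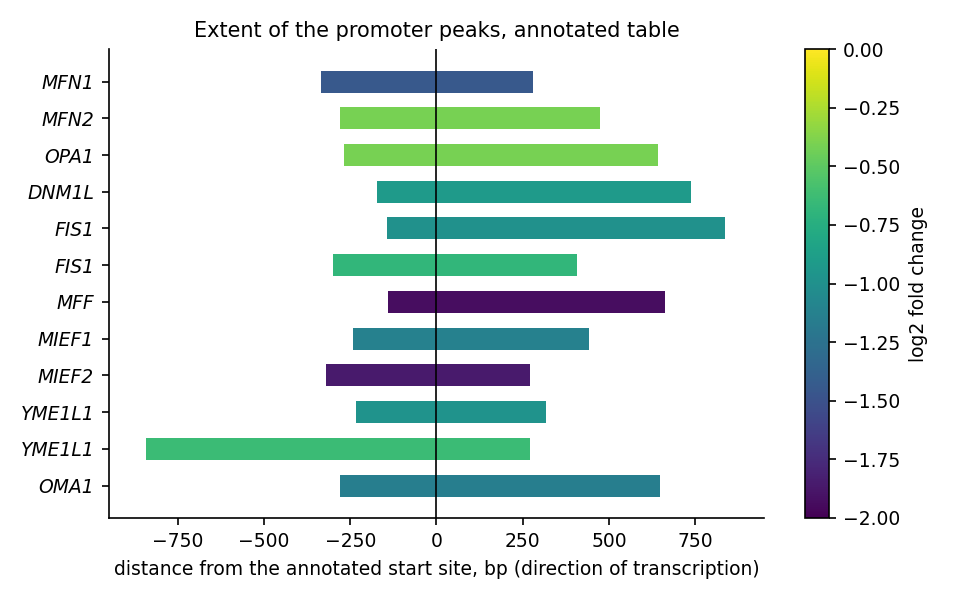
Extent of the 12 promoter peaks of the annotated table, in bp from the annotated start site along the direction of transcription, coloured by log2 fold change. Each bar crosses the start site at 0, and the pairs of bars at FIS1 and YME1L1 belong to different start sites of those genes.

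Peak level and chromosome position were set beside these values. Peaks of like level, in 20 equal bins of mean level, had medians between -0.99 and -0.83 in the annotated table and between -1.28 and -1.02 in the library-2 table. Other peaks within 2.5 Mb had medians between -0.94 and -0.65 in the annotated table and between -1.39 and -1.07 in the library-2 table. The low annotated-table values of MFF and MIEF2 were as far below these references, by differences of -1.09 and -0.91 from peaks of like level and of -1.07 and -1.20 from neighbouring peaks. In the library-2 table MFF differed from these references by -0.45 and -0.11 and MIEF2 by -0.01 and -0.05. MFN1 was below both references in both tables, at -0.45 and -0.54 in the annotated table and -0.20 and -0.26 in the library-2 table. The high annotated-table value of MFN2 was 0.54 above peaks of like level and 0.24 above its neighbours on the distal short arm of chromosome 1, whose median was -0.65. In the library-2 table MFN2 was 0.04 above peaks of like level and differed from its neighbours by -0.16, the opposite sign. OPA1 was 0.56 and 0.53 above these references in the annotated table and differed by 0.10 and 0.00 in the library-2 table. OMA1 in the library-2 table was -0.26 from peaks of like level and -0.15 from its neighbours, only 6 peaks with a median of -1.39. MFF had only 2 neighbouring peaks in the library-2 table.

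**Figure D5:**
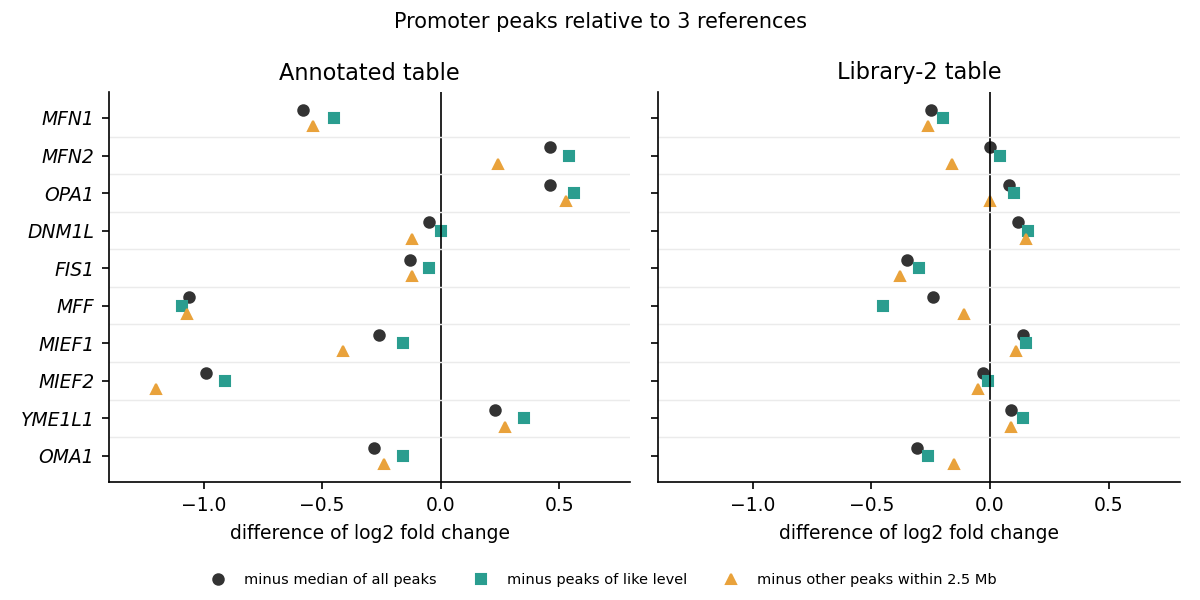
Log2 fold change of each gene's strongest promoter peak minus 3 references, the median of all peaks (circles), the median of peaks of like level (squares) and the median of other peaks within 2.5 Mb (triangles), in the annotated (left) and library-2 table (right). MFF, MIEF2 and MFN1 lie left of 0 under each reference in the annotated table, and OPA1, MFN2 and YME1L1 lie right of it.

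Of 38 further genes of mitochondrial membrane shaping, fission and fusion regulation and transport, 27 had a promoter peak in the annotated table and 26 in the library-2 table. Their median fold change was -0.93 in the annotated table, with 11 of 27 lower by at least 1 against 43.3% of all genes with a promoter peak, and -1.29 in the library-2 table, with 21 of 26 against 83.1%. None was higher by at least 1, and 0 passed the authors' test at an adjusted or an unadjusted p of 0.05 in either table. The 12 inner membrane and cristae genes had a median of -0.94 in the annotated table, 13 regulators of fission and fusion had -0.95 and 2 transport genes had -0.37, and in the library-2 table the medians were -1.30 over 11 genes, -1.17 over 13 and -1.38 over 2.

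IMMT, which encodes mitofilin of the cristae-organising MICOS complex, was the lowest of these genes in both tables, at -1.56 in the authors' deposited annotated table and -2.07 in the authors' deposited library-2 table (interval -2.31 to -1.86). Other peaks within 2.5 Mb of it had medians of -1.29 and -1.5. CHCHD3, another MICOS subunit gene, followed in the annotated table at -1.46, and PHB1, a prohibitin gene, in the library-2 table at -1.93, where its neighbouring peaks had a median of -1.57, in the authors' deposited tables. RHOT1, the gene of the transport GTPase Miro1, was the least lowered in the authors' deposited annotated table at 0.06. Its peak there (chr17:32142103-32142438) had a mean log2 level of only 6.26. The peak of the authors' deposited library-2 table, at -1.48, was wider and spanned it (chr17:32141989-32143251). MTFP1, a fission regulator gene, was next in the authors' deposited annotated table at -0.34 and stood at -1.45 in the library-2 table. The least lowered in the library-2 table were MUL1, an outer membrane ubiquitin ligase gene, at -0.93 and PLD6, the mitochondrial phospholipase D gene, at -0.96, both from the authors' deposited values. By distance over the 2 median-centred fold changes, the genes most like the median of the 10 were CHCHD6 and MTFR1, each at a distance of 0.14, and SENP5 at 0.16. This likeness rests on 2 comparisons only.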

How the data were processed

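ATAC-seq was measured in 4 Kasumi-1 libraries, grouped by sample titles. Per the submitters' processing notes, Bowtie2, cutadapt, MACS2 2.1.2, SAMtools, ChIPseeker and deepTools were used with build hg38. Scaling, transposase shift and duplicate filters are not given in the sources used here. From these reads the authors made 2 deposited tables of log2 levels, log2 fold changes, p-values and adjusted p-values per peak. In the annotated table, columns were identified by order and range, and its 2 columns of per-library values were not used because no library is named. Start coordinates are printed as deposited.

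Promoter means the authors' class, within 3 kb of a start site. Tables were joined by the largest overlap of at least 1 bp, giving 11117 pairs, and were not scaled to each other. Knockout levels of the library-2 table were whole reads (100% of 185 weak values, within 0.005 on the log2 scale), and control levels were reads times 0.918. No count test was run, because the tables give no counts for both libraries of a group, so p-values are the authors'. For the annotated table the number of libraries per group is not stated. Its p-values measure at most a spread between libraries, which may be technical, and no such spread if it held 1 per group. Those of the library-2 table, with 1 library per group, measure no spread between replicates. Python 3.11.15, numpy 2.4.6, pandas 2.3.3, scipy 1.17.1 and matplotlib 3.10.9 were used. The join, the exact intervals of single peaks and the level bins were tested on simulated data. The intervals of differences between genes were not.

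The genes, lists, motifs and alternatives were chosen with earlier results of these data known. Named were all peaks of the 10 genes, the 2 lowest and 2 highest promoters per table of the related list, and its 3 genes nearest the median of the 10. Current gene symbols came from GRCh38.p14 by gene identifier. Alternatives covered centring, level, neighbouring peaks, peak choice, fold size, level filter and overlap.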

Additional observations from a re-analysis of the deposited data

How the results depend on the processing

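The median promoter fold change of the 10 genes moved with the reference. Centred on the median of all peaks it was -0.19 in the annotated table and -0.02 in the library-2 table, relative to other peaks within 2.5 Mb it was -0.18 and -0.08, and with the level trend removed it was -0.10 and 0.02, the last a change of sign. These shifts follow from subtracting a negative reference. With peaks at or above the median level only, the annotated-table median was -0.96. The number of peaks lower by at least 1, 6 in the annotated table and 11 in the library-2 table, became 10 in the annotated table at a threshold of 0.5, 2 and 2 at 1.5, and 1 and 0 after centring. The number of related genes, 11 and 21, became 1 and 6 at 1.5 and 0 and 0 after centring. Using all promoter peaks rather than the strongest left the medians within 0.1, at -0.98 and -1.26. The peak nearest the start site, the 1 kb window and a stricter overlap between the tables left the medians unchanged. These 3 settings could not test stability. Every promoter peak covered its annotated start site, and every joined peak met the stricter overlap.

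Values per gene relative to the references were added after seeing the data. Of the annotated table, 3 genes changed sign when centred, with the level trend removed and relative to neighbours, in that order: MFN2 (0.46, 0.54 and 0.24), OPA1 (0.46, 0.56 and 0.53) and YME1L1 (0.23, 0.35 and 0.27). In the library-2 table so did DNM1L (0.12, 0.16 and 0.15), MIEF1 (0.14, 0.15 and 0.11) and YME1L1 (0.09, 0.14 and 0.09), OPA1 when centred (0.08) and with the level trend removed (0.10), and MFN2 with the level trend removed (0.04). The other genes stayed below 0 or at it under these references. All these values are of the strongest promoter peaks. In the annotated table the weaker YME1L1 peak stayed below 0, at -0.10, -0.04 and -0.14. The upstream FIS1 peak changed sign there, at 0.19, 0.33 and 0.21. No paired analysis was possible because the labels of the groups share only the number 2 and the annotated table names no library, and leaving out a replicate was not run for the same reason. The depth limits MFF most, with 36.0 knockout reads.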
